A study of Mus musculus with 10 samples.

Results

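Coenzyme Q synthesis genes were examined in the left ventricle of infarcted mouse hearts as 10 listed members: Coq2, Coq3, Coq4, Coq5, Coq6, Coq7, Coq8a, Coq8b, Coq9 and Coq10a. They were taken by symbol from the deposited gene table, where all 10 had a row among 49585, and all 10 passed the filter on low counts among 12906 tested genes. The groups compared were 5 libraries of hearts given PBS (phosphate-buffered saline) and 5 given a treatment labelled 4FM3, both after myocardial infarction. All libraries came from male ICR mice, an outbred stock. Hearts were taken 4 weeks after infarction per the design text, while a time label gives 8 weeks without naming a starting point. The series title names reprogramming in vivo by AAV, a virus used as a gene vector, but the labels do not say what 4FM3 is made of. No uninjured hearts and no empty-vector hearts were analysed here, so a vector and its cargo cannot be told apart. The labels do not tie libraries to animals, and p-values therefore describe library-to-library spread, which may be technical. Atria, valves and right ventricle had been cut away. The ventricular light chain gene Myl2 had a mean of 1843 CPM (SD 309) under PBS and of 3681 CPM (SD 596) under 4FM3, with 5 libraries a group. CPM are counts per 1000000 counts of the library size after TMM scaling.

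Coenzyme Q, or ubiquinone, is the lipid electron carrier of the inner mitochondrial membrane. It takes electrons from complex I, from succinate dehydrogenase and from several other dehydrogenases and hands them to complex III. Its ring comes from tyrosine and its isoprenoid tail from the mevalonate route. The tail is joined to the ring in mitochondria, and the ring is then modified by a membrane-bound assembly of Coq proteins called complex Q. The heart, with its high respiratory rate, is known as a tissue rich in coenzyme Q, and inherited defects of these genes can cause cardiomyopathy, kidney disease and ataxia.

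The libraries held between 6634159 and 7711177 counts. Lung epithelium markers summed to 933 and 898.5 CPM in PBS replicates 2 and 3, to 19.5 CPM in 4FM3 replicate 2 and to at most 1.70 CPM in the other libraries. Fast skeletal muscle markers summed to at most 19.0 CPM in any library. Calls of coenzyme Q genes and ratios that were lost without PBS replicates 2 and 3 are given beside them.

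RNA of nearly all of these genes was higher in 4FM3 than in PBS. Of the 10 members, 9 rose (edgeR quasi-likelihood test, adjusted p under 0.05), none fell and Coq8b did not pass, while 20.9% of all tested genes were called higher, 22.1% lower and 43.0% in either direction. The median log2 fold change of the members was 0.72, against -0.03 for all tested genes. The 5 values of 4FM3 lay wholly above the 5 of PBS for 8 members, and groups lay wholly apart for 27.5% of all tested genes. The rises were of moderate size, from 0.42 for Coq4 to 0.89 for Coq9 on the log2 scale. Scaled by library size alone, where the median of all genes moved by -0.18, 8 members rose and Coq4 did not pass (log2 fold change 0.24, adjusted p = 0.121).

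Cell type markers differed between the groups as well. All 8 cardiomyocyte markers rose, and their summed level ran from 25560 to 37150 CPM in PBS and from 42090 to 55150 CPM in 4FM3. Of these 8, Actn2 did not pass without PBS replicates 2 and 3 (log2 fold change 0.29, adjusted p = 0.0827) or with library size alone (adjusted p = 0.0831). All 6 fibroblast markers fell, with sums from 7769 to 9806 CPM in PBS and 3275 to 5537 CPM in 4FM3. Of 6 macrophage markers 5 fell, with sums from 620 to 1534 CPM and from 549 to 707 CPM. Of 5 endothelial markers 2 rose, with sums from 914 to 1081 CPM and from 1052 to 1147 CPM. In these bulk samples, fewer cells of a type and less RNA per cell cannot be told apart, and the part of cell composition in the Coq differences was not tested. Without PBS replicates 2 and 3, 9 of the 10 members rose, and the median log2 fold change of the members was 0.68. Over all genes, that fit gave 1853 higher and 1668 lower, against 2700 and 2846 with all libraries.

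Start regions of 3 members and of Coq10b, the paralog of Coq10a, are shown before the values of each gene. They belong to the member with the highest fold change, the member with the highest counts and a pair of paralogs of which 1 rose. Windows of 250 bases before to 50 bases after an annotated start, from RefSeq on GRCm38.p6, were matched for 8 of the 10 members. These 8 members had 11 windows between them. Capitals mark matches to any of 7 short motifs, searched on both strands. Coq9, the member with the largest rise, has this window at chr8:94838163-94838462, plus strand, with 39 CpG dinucleotides and a G and C content of 68.3%.
Coq9: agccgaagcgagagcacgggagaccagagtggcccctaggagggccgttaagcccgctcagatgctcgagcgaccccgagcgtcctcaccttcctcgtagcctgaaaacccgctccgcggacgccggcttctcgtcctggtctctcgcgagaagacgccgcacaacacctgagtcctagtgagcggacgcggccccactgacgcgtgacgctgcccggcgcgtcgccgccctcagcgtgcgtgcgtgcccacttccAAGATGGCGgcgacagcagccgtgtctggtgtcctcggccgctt
Coq8a, the most abundant member by count, has a start at chr1:180195971-180196270 on the minus strand. A second window of this gene, not shown, holds none of the motifs.
Coq8a: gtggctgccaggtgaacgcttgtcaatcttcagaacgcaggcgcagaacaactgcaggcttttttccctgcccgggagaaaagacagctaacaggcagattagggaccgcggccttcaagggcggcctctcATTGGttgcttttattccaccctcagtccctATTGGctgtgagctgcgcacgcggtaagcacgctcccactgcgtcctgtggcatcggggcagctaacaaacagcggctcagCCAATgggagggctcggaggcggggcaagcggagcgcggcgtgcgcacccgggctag
Coq10a rose and its paralog Coq10b did not pass. Their windows are at chr10:128368931-128369230, minus strand, and chr1:55052520-55052819, plus strand.
Coq10a: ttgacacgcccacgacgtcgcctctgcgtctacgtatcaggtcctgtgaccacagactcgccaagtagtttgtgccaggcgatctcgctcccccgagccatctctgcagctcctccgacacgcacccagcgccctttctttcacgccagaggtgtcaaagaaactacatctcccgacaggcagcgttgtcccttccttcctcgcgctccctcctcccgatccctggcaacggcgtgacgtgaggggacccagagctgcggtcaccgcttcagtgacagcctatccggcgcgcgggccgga
Coq10b: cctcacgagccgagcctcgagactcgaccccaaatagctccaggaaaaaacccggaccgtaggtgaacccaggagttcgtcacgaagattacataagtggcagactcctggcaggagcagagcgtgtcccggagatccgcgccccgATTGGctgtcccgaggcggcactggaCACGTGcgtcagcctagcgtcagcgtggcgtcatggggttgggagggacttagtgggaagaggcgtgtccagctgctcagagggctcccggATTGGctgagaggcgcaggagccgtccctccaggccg
The motifs were the NRF1 core (GCGCA, any base, GCGC), the ETS site CCGGAAG, the half-site AAGGTCA bound by estrogen-related receptors, the CCAAT box CCAAT, the MEF2 core (CTA, any 4 bases, TAG), the E-box CACGTG and, added after the Coq9 window was read, the YY1 core AANATGGCG. The capitals in the Coq9 window are a YY1 match that begins 6 bases past the annotated start, a motif present in 2.39% of 32544 windows. The Coq8a window shown holds 3 CCAAT matches. This motif was in 3 of the 11 windows of members, and in 37.4% of all windows. The Coq10b window holds 2 CCAAT matches and 1 E-box, and the Coq10a window shown holds none of the 7 motifs. NRF1 (Coq3), ETS (Coq6), half-site (a second Coq10a window) and E-box (Coq4) matches occurred in 1 of the 11 member windows each. Of all windows, 4.63%, 8.91%, 4.71% and 7.17% hold them, in that order. MEF2 matches occurred in no member window and in 3.7% of all windows. No matches overlap in the windows shown. A match describes letters and not a bound site.

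Coq2 (chr5:100654723-100675140, minus strand; gene positions here and below are from GENCODE M21 on mm10) encodes the transferase that joins the isoprenoid tail to the ring. It stood at 60.7, 50.7, 54.6, 56.7 and 47.3 CPM in PBS replicates 1 to 5 and at 88.0, 78.9, 85.4, 84.8 and 60.7 CPM in 4FM3 replicates 1 to 5. The groups did not overlap, but 4FM3 replicate 5 was almost level with PBS replicate 1 while the other 4FM3 libraries were well above. Coq2 rose 1.47-fold (log2 fold change 0.56, SE 0.102, adjusted p = 0.00114).

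Coq6, Coq3 and Coq5, 3 genes for ring modification, all rose. Coq6 (chr12:84361657-84373796, plus strand) encodes a ring hydroxylase and measured 39.2, 31.4, 34.5, 38.5 and 30.0 CPM in PBS and 68.1, 51.9, 58.2, 57.2 and 53.2 CPM in 4FM3. All 4FM3 libraries were above all PBS libraries, and the change was 1.66-fold (log2 0.73, SE 0.0961, adjusted p = 0.000271), the smallest adjusted p among the members. Coq3 (chr4:21879673-21912162, plus strand), the O-methyltransferase of the ring, read 34.2, 29.4, 24.9, 35.7 and 21.8 CPM in PBS against 49.4, 47.9, 59.0, 52.6 and 44.95 CPM in 4FM3. These groups were clearly separated, with a gap between 35.7 and 44.95 CPM, and the gene rose 1.74-fold (log2 0.80, SE 0.129, adjusted p = 0.000628). Coq5 (chr5:115279666-115296972, plus strand), the C-methyltransferase, went from 108, 83.0, 76.3, 97.0 and 75.6 CPM to 147, 115, 163, 133 and 128 CPM. The highest PBS library came near the lowest 4FM3 library without reaching it, and Coq5 rose 1.56-fold (log2 0.64, SE 0.116, adjusted p = 0.00118).

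Both genes of the late hydroxylation step rose. Coq7 (chr7:118509659-118533356, minus strand) encodes the hydroxylase of this step and had 30.7, 24.0, 24.4, 23.7 and 20.9 CPM in PBS and 46.6, 35.3, 50.8, 47.8 and 38.4 CPM in 4FM3. It rose 1.77-fold (log2 0.82, SE 0.121, adjusted p = 0.000378), and 4FM3 replicates 2 and 5 were the lowest of their group. Coq9 (chr8:94838321-94854895, plus strand), the lipid-binding partner that presents substrate to Coq7, had 242.5, 182, 192, 239 and 164.5 CPM in PBS and 417, 321, 427.5, 397 and 323.5 CPM in 4FM3. The gap between the groups ran from 242.5 to 321 CPM. Coq9 rose 1.85-fold (log2 0.89, SE 0.125, adjusted p = 0.000321), which placed it at percentile 97.7 of all tested genes by fold change. Whether Coq7 and Coq9 differed from the other enzymes was not tested.

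Coq4 (chr2:29787493-29797935, plus strand), known from yeast as a scaffold of complex Q, was scarce and had the lowest fold change of the 9 members that rose. It read 10.02, 10.44, 10.03, 10.13 and 7.09 CPM in PBS and 12.9, 11.3, 14.7, 11.7 and 13.2 CPM in 4FM3. The groups did not overlap, but the distance between them was under 1 CPM. The log2 fold change was 0.42 (SE 0.127, adjusted p = 0.0187), and without 4FM3 replicate 3 it stood at 0.36 with an adjusted p of 0.0507. In the annotation, 921 of the 3399 exon bases of Coq4 are shared with Trub2 on the opposite strand. Trub2 did not pass (log2 fold change -0.08, adjusted p = 0.551), and no source used here says whether counting used the strand, so reads of this overlap are uncertain. Shorter opposite-strand overlaps join Coq8a with Cdc42bpa (366 bases), Coq6 with Fam161b (128 bases) and Coq9 with Ciapin1 (38 bases). Fam161b (log2 fold change 0.65, adjusted p = 0.00135) and Ciapin1 (0.45, adjusted p = 0.00119) rose, and Cdc42bpa fell (-0.24, adjusted p = 0.00784).

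**Figure D1:**
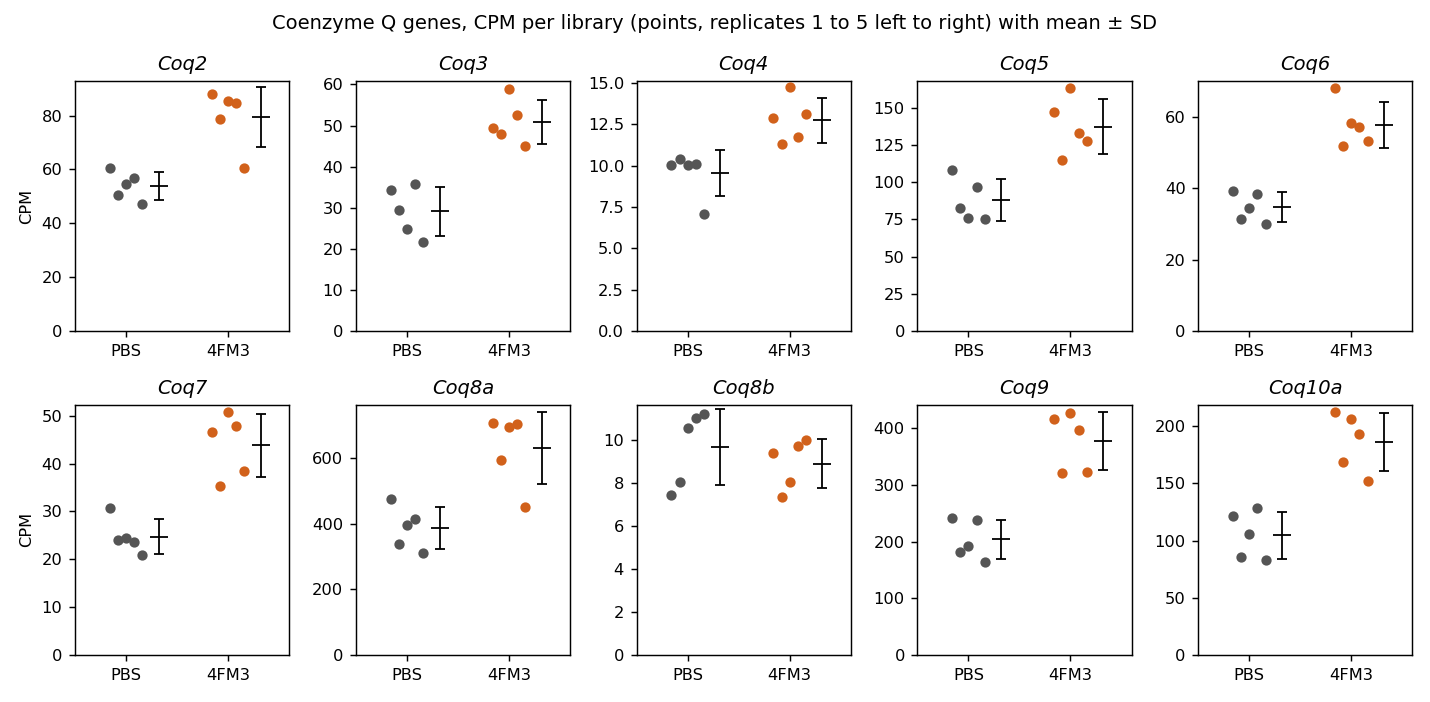
CPM of the 10 members in each library (points, with the group mean and SD beside them), PBS in grey and 4FM3 in orange, each panel with its own axis from 0. The 4FM3 points lie above all PBS points for 8 members, overlap them slightly for Coq8a (451.5 against 476.5 CPM) and mix with them for Coq8b.

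Of the 2 members of the UbiB family, Coq8a rose and Coq8b did not pass. Coq8a and Coq8b encode paralogous mitochondrial proteins with a kinase-like fold that are needed for complex Q, Coq8a being the form prominent in muscle and brain and Coq8b known for its role in kidney podocytes. Coq8a (chr1:180165238-180199602, minus strand) stood at 476.5, 338, 395, 415 and 312 CPM in PBS and at 707, 594.5, 696, 705.5 and 451.5 CPM in 4FM3. The groups overlapped only because 4FM3 replicate 5 lay below PBS replicate 1. Coq8a rose 1.63-fold (log2 0.70, SE 0.142, adjusted p = 0.0021). Coq8b (chr7:27233023-27257950, plus strand) measured 7.42, 8.05, 10.5, 11.01 and 11.2 CPM in PBS and 9.36, 7.35, 8.01, 9.72 and 9.97 CPM in 4FM3, with overlapping ranges. Its log2 fold change was -0.12 (SE 0.150, adjusted p = 0.544), on between 50 and 87 counts per library. Coq8b also shares 455 exon bases with an antisense gene and 153 with a processed transcript on its own strand.

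The difference between the paralogs was tested as a ratio of counts within each library, which does not depend on scaling. Altogether 3 such ratios were chosen, Coq8a to Coq8b, Coq10a to Coq10b and Pdss1 to Pdss2, and p-values were adjusted over them. The log2 ratio of Coq8a to Coq8b was 5.99, 5.38, 5.22, 5.23 and 4.79 in PBS and 6.23, 6.33, 6.43, 6.17 and 5.49 in 4FM3. The 4FM3 libraries were higher apart from replicate 5, and PBS replicate 1 was the highest of its group. The mean went from 5.32 ± 0.434 to 6.13 ± 0.370 (SD, n = 5 each), a difference of 0.81, or 1.75-fold. A two-sided exact permutation test gave p = 0.0159 and an adjusted p of 0.0238. Leaving out each library in turn gave differences between 0.67 and 0.97, with the adjusted p of the exact permutation test under 0.05 in 2 of the 10 cases.

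Coq10a (chr10:128363100-128368997, minus strand) encodes a lipid-binding protein of the START-like family that binds coenzyme Q and, from its yeast counterpart, is known to be needed for the carrier to work in respiration. It had 121, 85.4, 106, 128 and 83.1 CPM in PBS and 212, 169, 206, 193 and 152 CPM in 4FM3. No PBS library reached the lowest 4FM3 library, and Coq10a rose 1.78-fold (log2 0.83, SE 0.135, adjusted p = 0.000733). Coq10b (chr1:55052770-55072702, plus strand), its paralog, is not among the 10 members. Coq10b had 37.2, 38.5, 46.2, 48.4 and 43.3 CPM in PBS and 25.6, 38.2, 37.0, 33.8 and 46.5 CPM in 4FM3, with overlapping groups. Its log2 fold change was -0.24 (SE 0.134, adjusted p = 0.170), and without 4FM3 replicate 5 it was -0.34 and passed (adjusted p = 0.0345).

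The ratio of Coq10a to Coq10b separated the groups. Its log2 values were 1.70, 1.15, 1.20, 1.41 and 0.94 in PBS and 3.05, 2.14, 2.48, 2.51 and 1.71 in 4FM3. All 5 4FM3 libraries exceeded all 5 PBS libraries, though replicate 5 of 4FM3 and replicate 1 of PBS were almost level. In linear terms the geometric mean ratio went from 2.43 to 5.197, a 2.14-fold difference (log2 means 1.28 ± 0.289 and 2.38 ± 0.495, SD, n = 5 each). The exact permutation test, two-sided, returned its smallest attainable p of 0.00794, with an adjusted p of 0.0238. The difference lay between 0.93 and 1.27 when each library was left out in turn, with the adjusted p under 0.05 each time. Without PBS replicates 2 and 3, the Coq8a to Coq8b and Coq10a to Coq10b differences were 0.79 and 1.03, and neither passed (exact permutation, adjusted p = 0.0804 each).

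**Figure D2:**
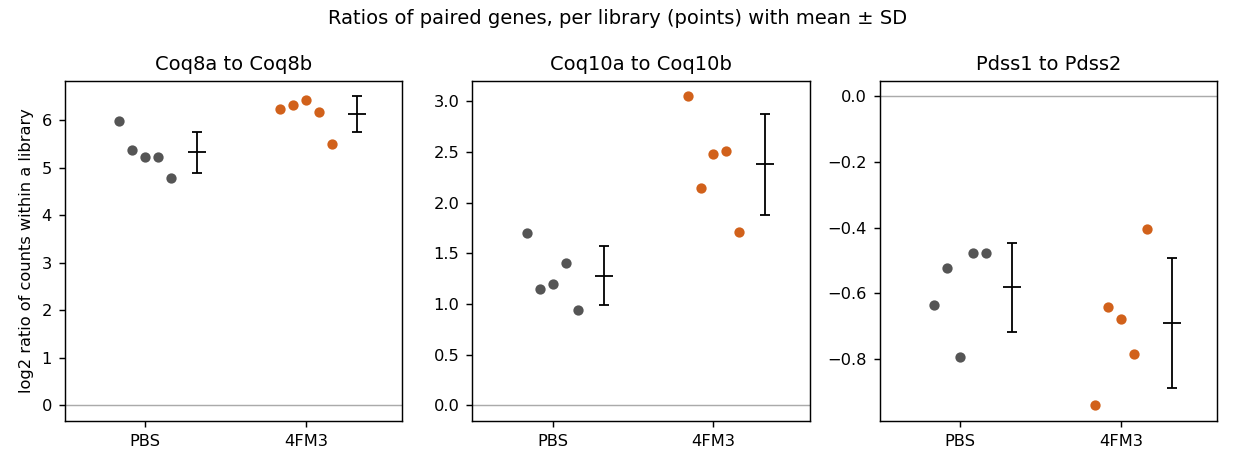
Log2 ratio of counts of 2 related genes within each library (points) with group mean and SD, for Coq8a to Coq8b, Coq10a to Coq10b and Pdss1 to Pdss2. The Coq10a to Coq10b ratios of 4FM3 all exceed those of PBS, the Coq8a to Coq8b ratios overlap in 4FM3 replicate 5, and the Pdss1 to Pdss2 ratios of both groups cover a similar range.

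Levels were compared between genes only per kilobase of annotated exon (GENCODE M21, mm10). In PBS, the level ran from 73.2 ± 12.3 CPM per kb for Coq8a and 66.8 ± 11.4 for Coq9, through 40.7 ± 7.96 for Coq10a, Coq5 with libraries from 24.9 to 35.6, and 20.6 ± 1.98 for Coq2, to 11.06 ± 1.303 for Coq6 (SD, n = 5). Lower still were Coq3 with 9.75 ± 1.98 CPM per kb, Coq7 with 3.85 ± 0.563, Coq4 with 2.81 ± 0.407 and Coq8b with 1.73 ± 0.317. Among neighbours in this order, the library ranges of Coq8a and Coq9, of Coq10a and Coq5, and of Coq6 and Coq3 overlapped. In 4FM3 the order was the same but for Coq9 (123 ± 16.8 CPM per kb) and Coq8a (119 ± 20.9), which changed places within overlapping ranges. Coq10b stood at 8.89 ± 0.999 CPM per kb in PBS and 7.54 ± 1.58 in 4FM3. These levels use the union of all annotated exons, so a gene with long unused exons is read too low.

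**Figure D3:**
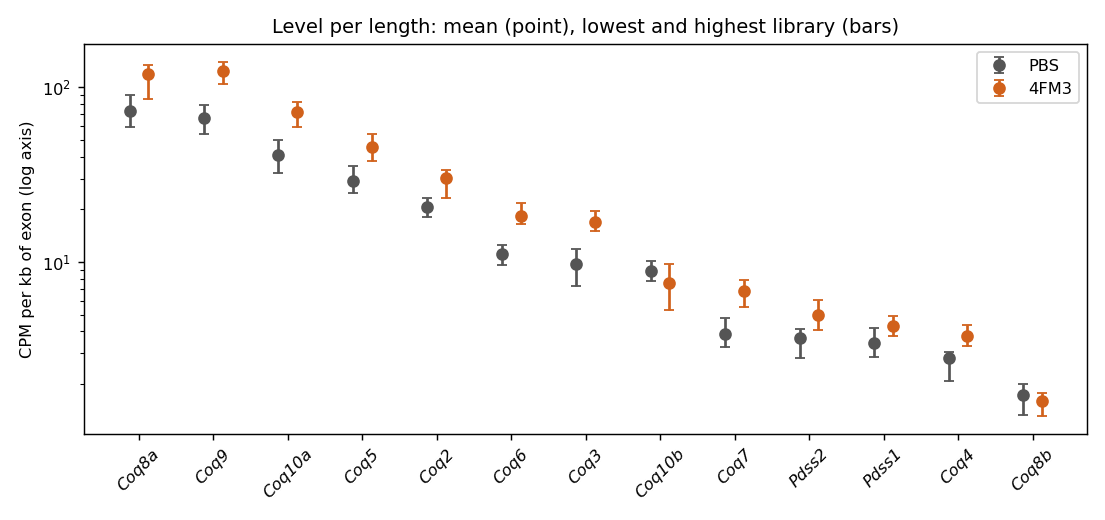
Level of the members, Coq10b, Pdss1 and Pdss2 in CPM per kb of exon on a log axis, with the mean as a point and the lowest and highest library as bars. Coq8a and Coq9 lead in both groups, with means from 66.8 to 123 CPM per kb, and Coq8b is lowest, with 1.73 in PBS and 1.59 in 4FM3.

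The tail of coenzyme Q is built by a synthase of 2 subunits, Pdss1 and Pdss2. Pdss2 had 23.3, 22.3, 22.8, 24.7 and 16.9 CPM in PBS and 31.3, 25.2, 31.6, 35.9 and 24.3 CPM in 4FM3, overlapping because 4FM3 replicate 5 lay below PBS replicate 4. It rose (log2 fold change 0.43, SE 0.127, adjusted p = 0.0167), but without PBS replicates 2 and 3 did not pass (0.46, adjusted p = 0.0593). Pdss1 went from 14.7 ± 2.18 to 18.3 ± 2.08 CPM (SD, n = 5 each) and passed only narrowly (log2 0.31, SE 0.119, adjusted p = 0.0492), which did not hold in 7 of the 10 fits that left out a library, nor without PBS replicates 2 and 3 (0.30, adjusted p = 0.154). Pdss1 shares 194 exon bases with Abi1 and 207 with a pseudogene, both on the opposite strand. Abi1 fell from a mean of 62.2 CPM in PBS to 45.65 CPM in 4FM3 (edgeR log2 fold change -0.45, adjusted p = 0.00159). Reads of these overlaps are uncertain as for Coq4, and their part in the Pdss1 counts was not tested. The ratio of Pdss1 to Pdss2 did not pass (difference -0.11, two-sided exact permutation p = 0.333, adjusted p = 0.333).

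Upstream of the tail synthase lies the mevalonate route from acetyl-CoA to farnesyl diphosphate. None of its 8 listed genes passed in either direction by edgeR, with a median log2 fold change of 0.07, and 1 of them had an unadjusted p under 0.05. That gene, Hmgcs1, encodes the synthase that makes HMG-CoA and had a log2 fold change of 0.19 (SE 0.0807, adjusted p = 0.0676). It passed in 5 of 20 alternative settings. Acat2, the thiolase at the head of the route, stood at -0.35 (SE 0.179, adjusted p = 0.135). By DESeq2 the count of the 8 genes that passed was also 0, but this did not hold in every setting. With library size alone, Acat2 was called lower by edgeR (log2 fold change -0.53, adjusted p = 0.0331). With the replicate block, 1 of the 8 was called higher and 1 lower.

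Outside complex Q, other genes tied to its function were mixed. Of 3 further UbiB family genes, Adck1 rose (20.1 ± 2.33 to 30.9 ± 2.39 CPM, SD, n = 5 each; log2 0.62, adjusted p = 0.000431). Adck2 (log2 0.15, adjusted p = 0.233) and Adck5 (-0.28, adjusted p = 0.124) did not pass. Of 5 helper genes 3 rose. They were Pptc7, a mitochondrial phosphatase linked to Coq7 (log2 0.70, SE 0.102, adjusted p = 0.000359), Stard7, a lipid transfer protein linked to coenzyme Q transport (0.50, SE 0.0980, adjusted p = 0.00179), and Hpdl, an enzyme of ring precursor synthesis known from human cells (0.69, SE 0.234, adjusted p = 0.0312). Hpdl stood at only 2.12 ± 0.577 and 3.42 ± 0.621 CPM, and did not pass in 10 of 20 alternative settings, among them that without PBS replicates 2 and 3 (0.46, adjusted p = 0.177). The ferredoxin Fdx2, listed under its older symbol Fdx1l, and its reductase Fdxr, which feed electrons to Coq6, stood at 0.22 and 0.06 (adjusted p = 0.416 and 0.719).

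**Figure D4:**
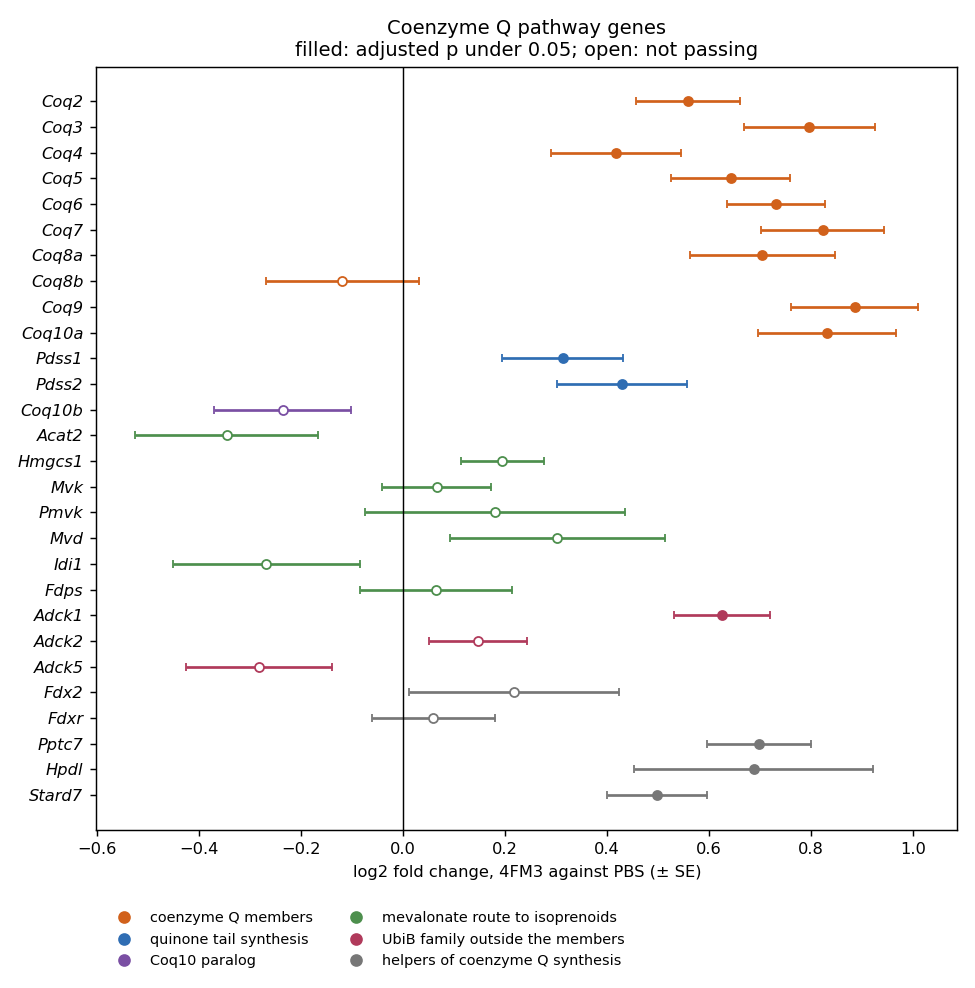
Log2 fold change, 4FM3 against PBS, with its SE for the 10 members and 18 related genes, coloured by list, with filled points past the adjusted threshold of 0.05. The members cluster between 0.42 and 0.89 apart from Coq8b at -0.12, and the 7 mevalonate genes drawn lie around 0 as open points.

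Many genes that use coenzyme Q were also higher in 4FM3. All 10 listed genes of complex III, which oxidises the reduced carrier, rose. Their median log2 fold change was 0.77, within a range from 0.67 to 0.85. Those with the smallest p were Uqcr10 (0.71), Uqcrb (0.85) and Uqcr11 (0.84). Of 11 tested dehydrogenases that reduce coenzyme Q, 6 rose, and the median over all 11 was 0.64. Those with the smallest p were the succinate dehydrogenase genes Sdhc (0.78), Sdhb (0.79) and Sdha (0.82). Of 8 markers of mitochondrial mass, 7 rose (median 0.62), and the smallest p belonged to Timm23 of the inner membrane import channel (0.94), the mitochondrial DNA factor Tfam (0.61) and the outer membrane channel Vdac1 (0.64). The 5 dehydrogenases that did not pass, named after their values were seen, were Gpd2 (0.06), Dhodh (0.35), Sqor (0.29), Aifm2 (0.20) and Nqo1 (0.42). Over 20 alternative settings, Sqor passed in 7, Dhodh and Nqo1 in 4 each and Aifm2 in 3, so that between 6 and 9 of the 11 rose. The first 3 encode enzymes that oxidise glycerol phosphate, dihydroorotate and sulfide, and the others encode quinone reductases outside the respiratory chain. A difference between these lists and the Coq members was not tested.

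**Figure D5:**
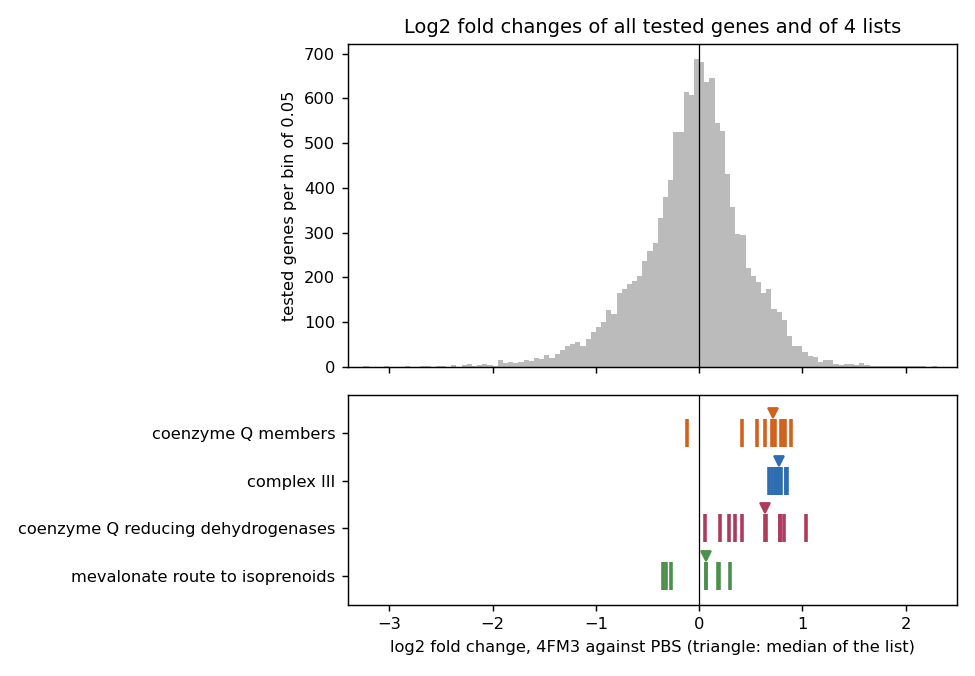
Upper panel, number of tested genes per log2 fold change bin of 0.05. Lower panel, log2 fold changes of the genes of 4 lists as ticks with a triangle at each median. The medians of the Coq members (0.72), complex III (0.77) and coenzyme Q reducing dehydrogenases (0.64) lie to the right of that of all genes (-0.03), and the mevalonate median (0.07) lies near 0.

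The members were set against Cs, the citrate synthase gene used as a marker of mitochondrial content, and Tnnt2, the cardiac troponin T gene, as ratios within each library. These 20 ratios were chosen after seeing the data. Cs itself rose by 0.70 on the log2 scale (SE 0.116, adjusted p = 0.000662) and Tnnt2 by 0.49 (SE 0.0985, adjusted p = 0.00189). Relative to Cs, Coq8a differed between the groups by -0.01 (SD of the log2 ratios 0.132 and 0.160, n = 5 each) and the members other than Coq8b by between -0.28 and 0.18. Coq8b differed by -0.81 (two-sided exact permutation p = 0.0159, adjusted p = 0.0635). Relative to Tnnt2, Coq9 differed by 0.40 (two-sided exact permutation p = 0.0159, adjusted p = 0.0635) and Coq8b by -0.60 (exact permutation p = 0.00794, adjusted p = 0.0635). Coq6 differed by 0.24 with the groups wholly apart (exact permutation p = 0.00794, adjusted p = 0.0635), and the other members lay between -0.07 and 0.35. None of the 20 ratios passed after adjustment, and 7 had an unadjusted exact p under 0.05. Groups wholly apart give the smallest p that this exact test can return, 0.00794, which here had an adjusted p of 0.0635. A single separated ratio among 20 could not pass on its own, so not passing does not show equal levels.

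Within groups, a few libraries were low for most members. In 4FM3, replicate 2 was the lowest library for 6 members and replicate 5 for the other 4, and PBS replicate 5 was the lowest of its group for 9 of 10. Fibroblast markers summed to 5205 and 5537 CPM in 4FM3 replicates 2 and 5 and to between 3275 and 3712 CPM in the rest of that group. Summed cardiomyocyte markers were 42090 and 50420 CPM in those libraries, against 52950 to 55150 CPM in the other 3. Myh6 made up most of these sums. The mean log2 CPM of the markers was 11.58 and 11.66, against 11.89 to 11.9 in the other 3. In PBS replicate 5, fibroblast markers summed to 8719 CPM, inside the PBS range of 7769 to 9806 CPM. Its cardiomyocyte markers summed to 25820 CPM (PBS range 25560 to 37150), most of it Myh6 (14860 CPM), and their mean log2 CPM of 10.77 was the lowest in PBS. It was the lowest PBS library for Tnni3, Myl2, Myl3, Ryr2 and Pln, but not for Myh6, Tnnt2 and Actn2. Its macrophage markers summed to 1302 CPM (PBS range 620 to 1534), and their mean log2 CPM of 7.22 was the highest in PBS. This library was the highest of its group for Cd68, Csf1r, Adgre1, C1qa and Ptprc, but not for Lyz2. Whether these marker levels go with the Coq levels was not tested. A fit that left out PBS replicate 5 and 4FM3 replicates 2 and 5, chosen after seeing the data, called 9 members higher. The members had a median log2 fold change of 0.78 there, and the fit called 2735 tested genes higher and 2804 lower. The libraries left out were picked where the members themselves were low, so this fit cannot serve as a separate check of the rise. The tested genes most like the mean standardized profile of the members over 10 libraries were Ndufa8, a complex I subunit (Pearson r = 0.999), Uqcrc1 of complex III (0.999), Etfa, an electron carrier from acyl-CoA dehydrogenases (0.998), Tmem38a, a cation channel of the sarcoplasmic reticulum (0.997), and Slc25a4, the muscle ATP carrier (0.997). With the group means removed, r of these 5 genes with the profile lay between 0.968 and 0.988. These values describe 10 libraries, and no p is given. The 5 genes were not a fixed set. Only 1 of them was among the top 5 with the group means removed. By Spearman correlation Ndufa8, Etfa and Slc25a4 had the highest possible rho of 1, tied with other genes. Just 1 of the 5 was kept in the top 5 by rho, which reflects how ties were ordered and not a lower rank. Coq8b was the member least like the profile (r = -0.244).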

How the data were processed

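RNA was extracted from the left ventricle, depleted of ribosomal RNA and made into directional libraries, per the labels' protocols. The deposited table, on build mm10 per the submitters' processing notes, holds whole-number read counts per gene that the authors did not normalize, in columns headed expression values. The sources used here name no aligner, counter or annotation. Another 20 columns of per-library values were not used. In 26 rows, with 0.131% to 0.161% of a library's counts, a date stands in place of a symbol. These rows stayed in the fit and are not named.

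Totals ranged from 6634159 to 7711177 counts per library. A count of 0 allows up to 3 counts, or 0.371 to 0.481 CPM, for counting error only. Counts were fitted with edgeR 4.0.16 in R 4.3.3 (filterByExpr, TMM, robust quasi-likelihood test, two-sided, no covariate), with p-values adjusted by Benjamini-Hochberg over all 12906 tested genes and a threshold of 0.05. The SE is the log2 fold change divided by the square root of F. Ratios within a library used a pseudocount of 0.5 counts and a two-sided exact permutation test over 252 assignments. DESeq2 1.42.0 and limma-voom 3.58.1 served as alternatives, and the fit was tested on simulated data. Replicate pairs differed by more than counting noise (chi-square per degree of freedom 4.43 to 18.24). Members, lists and tests were chosen with earlier results of these data known. Besides all members, Pdss1, Pdss2 and Coq10b, the text names the 3 genes with the smallest p of each related list and the 5 most like the member profile, and it says where others were named after their values were seen. Some genes that this rule names are not reported here.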

Additional observations from a re-analysis of the deposited data

Results flagged for a closer look

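Values that stood apart from the other 4 of their group by Dixon's criterion for 5 values are given here. The criterion was applied to 124 sets of 5 values, where chance flags about 1 in 20, and 4 were picked out. Coq4 in PBS replicate 5 was the lowest of its group with 7.09 CPM, next to 10.02 CPM in the nearest library. The log2 ratio of Coq8a to Coq8b in 4FM3 replicate 5 was 5.49, below 6.17 in the nearest. Idi1, an isomerase of the mevalonate route, was highest in 4FM3 replicate 2 with 11.7 CPM, above 8.74 CPM. Timm23, a subunit of the inner membrane import channel, was lowest in PBS replicate 4 with 16.97 CPM, below 20.8 CPM.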

How the results depend on the processing

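The count of members that rose was 8 or 9 under all 20 alternatives, and none fell under any. It was 8 with library size alone and without 4FM3 replicate 3, where Coq4 did not pass. Over all genes, library size alone gave 1540 higher and 4967 lower, and leaving out PBS replicates 2 and 3 gave 1668 lower. Same-numbered libraries did not deviate together (correlations from -0.0448 to 0.0595, own number highest for 1 of 5), so the numbers were not taken as pairs. With the replicate block 9 members rose, with 2740 genes higher and 2852 lower. As paired differences, the Coq8a to Coq8b and Coq10a to Coq10b ratios were 0.81 and 1.10 (adjusted p = 0.0938 each by an exact test whose smallest p is 0.0625). Without PBS replicates 2 and 3 these ratios were 0.79 and 1.03 (adjusted p = 0.0804 each, exact permutation), and without 4FM3 replicates 2 and 5 as well 0.94 and 1.33 (0.1 each, the smallest exact p). Leaving out each library gave 0.673 to 0.973 for Coq8a to Coq8b, and 0.931 to 1.27 for Coq10a to Coq10b. Coq10b was called lower in 4 of 20 alternatives, among them library size alone (-0.41). Pdss1 and Pdss2 lost their call in 12 and 2. Signs of genes that were not called turned with library size alone for Mvk (-0.110), Pmvk (-0.00213), Fdps (-0.110), Adck2 (-0.0292), Fdxr (-0.119) and Gpd2 (-0.121). Fdps also turned without PBS replicate 5 and 4FM3 replicates 2 and 5 (-0.0632), and ran from -0.0297 to 0.149 as each library was left out. Ratios near 0 changed sign too. Without PBS replicates 2 and 3, Coq6 to Cs was -0.0027 and Coq4 to Tnnt2 was 0.0824. Without 4FM3 replicates 2 and 5 as well, Coq6 to Cs, Coq8a to Cs and Coq4 to Tnnt2 were -0.0261, 0.0316 and 0.0339. Leaving out each library moved Coq6 to Cs between -0.019 and 0.0765, Coq8a to Cs between -0.0427 and 0.0596, Coq4 to Tnnt2 between -0.171 and 0.0104 and Coq2 to Tnnt2 between -0.00603 and 0.156. The cause of these shifts was not tested. The 5 genes most like the member profile had Spearman's rho between 0.988 and 1, so their order by rho rests in part on ties.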

Other observations

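When the group means were removed, so that only differences between libraries of a group counted, genes among the 5 most like the member profile were Slc2a4, the insulin-responsive glucose transporter gene (Pearson r = 0.993), Immt of the cristae organising complex (0.988), Uqcrc1 (0.988) and Cox7a1, a muscle isoform of a cytochrome oxidase subunit (0.988). These 4 had positive log2 fold changes, from 0.68 for Immt to 1.13 for Cox7a1. Among the members themselves, Coq9 was most like the within-group profile (0.994) and Coq8b least (-0.170), although each member is part of the profile it was compared with. These values describe 10 libraries and carry no test.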
